A study of Mus musculus with 12 samples.

Results

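The cytosolic ribosome is the machine that reads messenger RNA and joins amino acids into protein. Its small subunit holds the message and checks each codon, and its large subunit forms the peptide bond and passes the growing chain through an exit tunnel. The proteins of both subunits are made in near-equal numbers, and their mRNAs share a pyrimidine-rich start, the 5′ terminal oligopyrimidine (TOP) element, through which the growth kinase mTORC1 and the RNA-binding protein Larp1 set their translation. In T-cell leukemia the ribosome is also a site of mutation: RPL5, RPL10 and RPL22 are altered in part of the human cases.

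The genes described here are 85 cytosolic ribosomal protein genes, 53 of the large and 32 of the small subunit, out of 27179 gene identifiers in the count tables. They were chosen by name: protein-coding mouse symbols of the form Rpl or Rps followed by a number, with Rplp0, Rplp1, Rplp2 and Rpsa added and pseudogenes and S6 kinases left out. Of 87 symbols with such a name, 2 (Rpl6l and Rps4l) were not protein coding and were left out. These 2 are among 38 retrogenes and pseudogenes of this class that were kept apart and are described below. Only symbols beginning with Rpl or Rps were listed there, so any copies with Gm names are in neither set.

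The samples were cells of a single primary T-cell acute lymphoblastic leukemia, ALL101, taken from the spleens of recipient mice. The leukemia carries Vav-tTA, a tetracycline-off transactivator active in blood cells, and TRE-GFP-shIkaros, a hairpin against the lymphoid transcription factor Ikaros that is linked to GFP. In 3 mice doxycycline was given for 3 days, which shuts the hairpin off and restores endogenous Ikaros, and cells of intermediate GFP were sorted; in 3 untreated mice the hairpin stayed on and cells of high GFP were sorted. The GFP gate and the treatment cannot be told apart, and there was no doxycycline-treated leukemia without the hairpin among the samples. The name of 1 library, untreated mouse 3, carries INJ where the other names describe the sort. All 6 mice carried the same leukemia, so p-values measure the spread between recipients of that leukemia.

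Each RNA was sequenced in 2 runs that were summed per mouse, giving 33899095 to 44949303 counts in doxycycline mice and 29904744 to 33063390 in untreated mice. Ikzf1, which encodes Ikaros, averaged 1486 ± 43.4 CPM (gene counts per 1000000 of the library, with TMM scaling) in doxycycline mice and 153.8 ± 4.54 CPM in untreated mice (SD, n = 3 each), in the direction of the labels. Markers of T cells summed to 6110 to 7258 CPM in doxycycline mice and 5010 to 5177 CPM in untreated mice, while the B-cell factor Pax5 was at 0 in all. Erythroid markers summed to 103.9 to 139.8 CPM in doxycycline mice and 8.58 to 67.4 CPM in untreated mice, and myeloid markers to 56.7 to 78.2 CPM in doxycycline mice and 21.9 to 38.4 CPM in untreated mice. The myeloid and T-cell sums hide opposite changes. By edgeR 2 of 6 myeloid markers were higher and 3 lower, and 3 of 8 T-cell markers were higher and 2 lower. Of 7 erythroid markers 3 were higher and 0 lower by edgeR (0 lower also by DESeq2, limma-voom and an unadjusted p under 0.05). DESeq2 gave 3 higher and limma-voom 7. In all 7 every doxycycline mouse was above every untreated mouse (log2 1.69 to 2.39), an arrangement seen in 30.2% of all tested genes. Over all tested genes edgeR called 24.8% higher and 25.2% lower. The part of these other cells in the results below was not tested. In bulk RNA, fewer cells of a type and less RNA per cell cannot be told apart.

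The starts of 9 genes are shown because TOP elements sit there and because these genes carry the extremes and the paralogue pairs of the results. Each line gives 30 bases before and 20 bases from the first RefSeq start listed for the gene (GRCm38.p6), 5′ to 3′ on its strand. Other starts of a gene were not examined. For Rpl22 (4:152324436-152334082) and Rps27l (9:66944624-66949522) the start shown lies inside the annotated gene. Capitals mark the longest run of C and T that begins with C and lies within 20 bases of the start on either side, where it has at least 5 bases. The genome positions are 14:18270967-18271016 on the minus strand for Rpl15, 7:109519165-109519214 on the plus strand for Rpl27a, 9:120571487-120571536 on the plus strand for Rpl14 and 9:64173357-64173406 on the plus strand for Rpl4. They are 9:66946056-66946105 on the plus strand for Rps27l, 3:28805478-28805527 on the plus strand for Rpl22l1, 4:152325696-152325745 on the plus strand for Rpl22, 17:46782637-46782686 on the minus strand for Rpl7l1 and 7:24884562-24884611 on the plus strand for Rps19.
Rpl15: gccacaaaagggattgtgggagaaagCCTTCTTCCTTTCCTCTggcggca
Rpl27a: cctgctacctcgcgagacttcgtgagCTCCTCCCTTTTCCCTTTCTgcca
Rpl14: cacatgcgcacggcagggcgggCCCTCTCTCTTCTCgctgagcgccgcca
Rpl4: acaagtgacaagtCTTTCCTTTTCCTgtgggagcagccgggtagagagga
Rps27l: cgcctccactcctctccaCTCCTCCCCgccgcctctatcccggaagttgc
Rpl22l1: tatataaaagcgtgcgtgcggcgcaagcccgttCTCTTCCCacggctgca
Rpl22: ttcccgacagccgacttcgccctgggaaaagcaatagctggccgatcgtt
Rpl7l1: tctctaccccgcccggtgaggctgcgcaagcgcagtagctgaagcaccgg
Rps19: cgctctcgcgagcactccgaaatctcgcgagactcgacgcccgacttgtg
The marked run is 17 bases long in Rpl15 and 20 in Rpl27a, and Rpl22, Rpl7l1 and Rps19 have no such run of 5 within 20 bases of the start shown.

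Ribosomal protein genes took a smaller share of the gene counts in doxycycline mice than in untreated mice. All 85 genes together took 1.509, 1.566 and 1.662% of the counts in doxycycline mice 1 to 3, against 1.981, 1.996 and 2.002% in untreated mice 1 to 3. The groups did not overlap, and the means, 1.579 ± 0.0773% in doxycycline mice and 1.993 ± 0.0108% in untreated mice (SD, n = 3 each), differed by -20.8% of the untreated value. The 95% Wilson intervals of the single shares, which cover counting error only, were at most 0.01 percentage points wide. Large-subunit genes took 0.9606 ± 0.0514% in doxycycline mice and 1.217 ± 0.0215% in untreated mice, and small-subunit genes 0.6184 ± 0.0273% in doxycycline mice and 0.7755 ± 0.0114% in untreated mice. The ratio of large to small was 1.516, 1.585 and 1.558 in doxycycline mice and 1.523, 1.563 and 1.624 in untreated mice, so its groups overlapped.

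**Figure D1:**
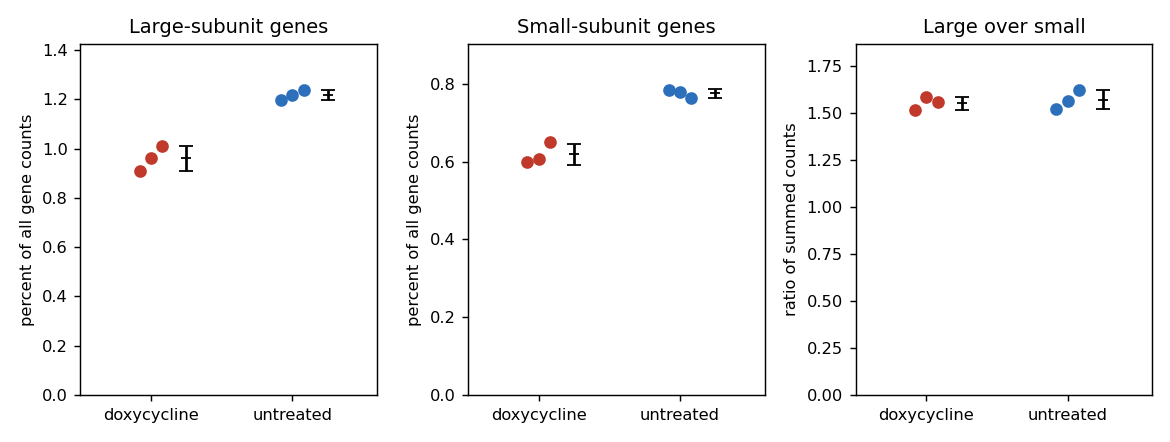
Percent of each mouse's gene counts on large-subunit and small-subunit ribosomal protein genes, and the ratio of these sums; points are mice, and bars are the mean ± SD of 3 mice per group. The 3 doxycycline mice lie below the 3 untreated mice for both subunits, at means of 0.9606 and 0.6184% in doxycycline mice against 1.217 and 0.7755% in untreated mice, while the ratios overlap.

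Gene by gene, 83 of the 85 could be tested, since Rpl10l had no count and Rpl39l had 1 count over all mice. By edgeR's quasi-likelihood test with Benjamini-Hochberg adjustment at 0.05 over 13134 genes, 56 were lower in doxycycline mice, 1 was higher and 26 did not pass. Over all tested genes the comparison called 25.2% lower and 24.8% higher, 50% in either direction. The members' median log2 fold change was -0.32, a change of -19.8%, with quartiles at -0.41 and -0.25, against a median of -0.0037 over all tested genes. The members also lay closer together, with an SD of log2 fold changes of 0.19, against 0.89 over all tested genes. At levels of 50 CPM or more both SDs were smaller. The SD was 0.12 for members and 0.5 for all tested genes between 50 and 200 CPM. At 200 CPM or more it was 0.08 and 0.48. In 66 members every doxycycline mouse was below every untreated mouse, an arrangement seen in 30.9% of all tested genes. It was the other way round in 1 member, Rpl15, and in 30.2% of all tested genes.

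**Figure D2:**
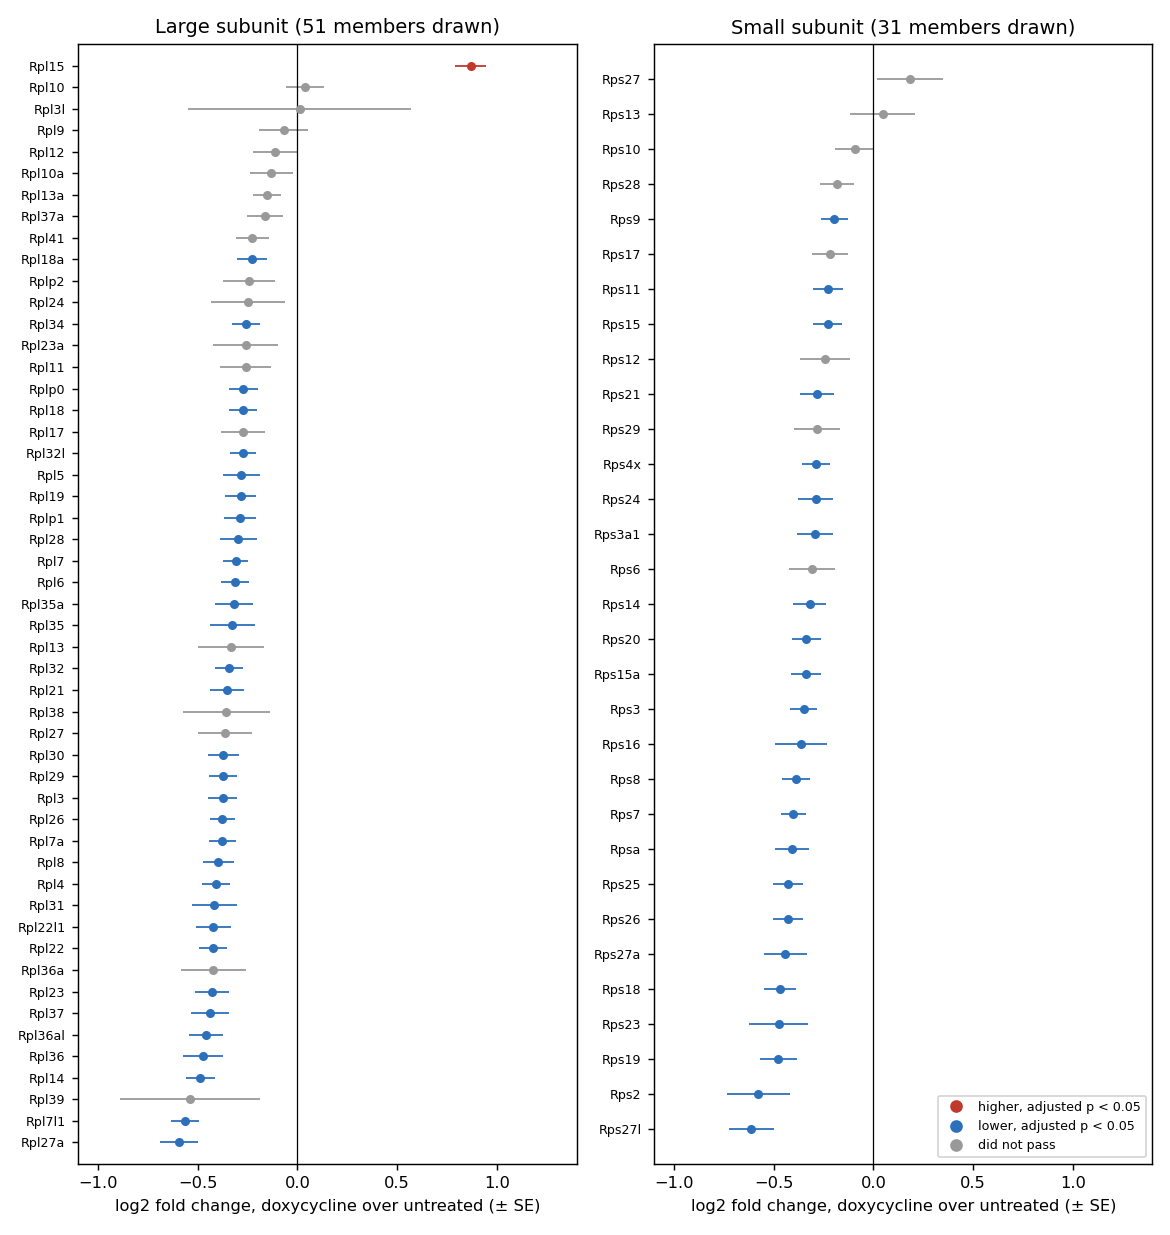
Log2 fold change (doxycycline over untreated) with its SE for the tested ribosomal protein genes (1 small-subunit gene is not drawn), large subunit on the left and small subunit on the right, ordered by value; blue and red mark genes called lower and higher, grey those that did not pass. Most points lie between -0.61 and 0, and Rpl15, at 0.87, stands alone on the right.

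By subunit, of 51 tested large-subunit genes 32 were lower and 1 was higher, the median log2 fold change being -0.32. Over all tested genes 25.2% were lower and 24.8% higher. Of 32 small-subunit genes 24 were lower and 0 were higher by edgeR, with a median of -0.33; DESeq2, limma-voom and an unadjusted p under 0.05 also gave 0 higher. Without untreated mouse 2 the small-subunit count was 15. Calls were more frequent among abundant genes: 21 of the 23 members with a mean level of 200 CPM or more were lower. Between 50 and 200 CPM 23 of 25 were lower. The count was 11 of 22 between 10 and 50 CPM and 1 of 13 below 10 CPM. Over all tested genes the share called lower was 34.3, 29.9, 26.5 and 17.7% in these same ranges. The members' median log2 fold changes, in the same order, were -0.31, -0.38, -0.29 and -0.26, so the medians differed less than the counts. Ribosomal protein mRNAs are short, with a median length of 703 bases against 2683.5 for all tested genes. Of all tested genes shorter than 750 bases, 26.2% were lower and the median log2 fold change was -0.14, and of the 48 members that short, 29 were lower, with a median of -0.31.

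**Figure D3:**
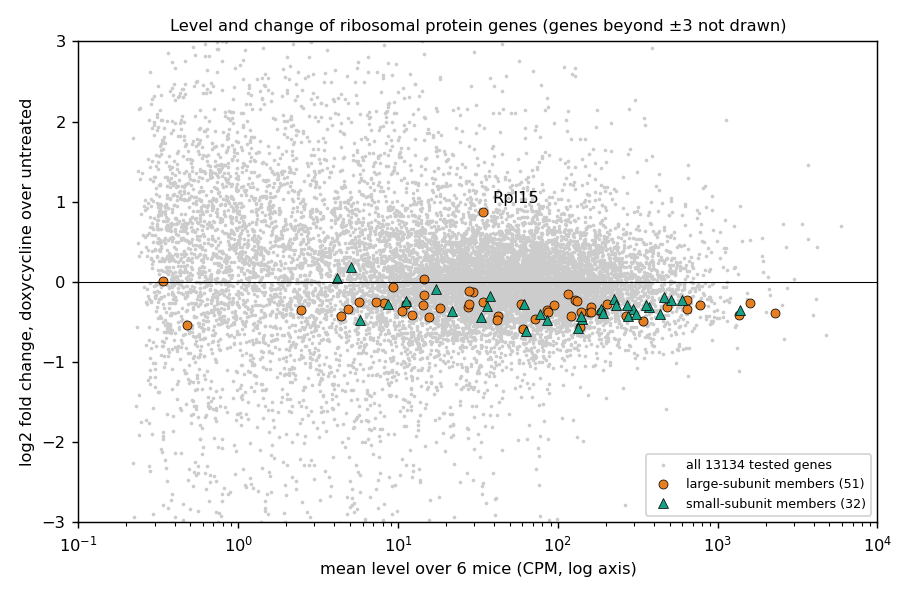
Mean level over 6 mice (CPM, log axis) against log2 fold change (doxycycline over untreated) for all tested genes in grey and the 83 tested ribosomal protein genes in colour; genes beyond 3 in either direction are not drawn. The ribosomal protein genes form a band around -0.32 at levels above 50 CPM and scatter more below, and Rpl15, under 50 CPM, lies highest.

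Levels varied widely between members. Per kilobase of gene length the median member had 101.6 CPM, 21 members had under 20 and 14 had over 500. Rpl8, a large-subunit protein next to the peptide-bond centre, was highest on that scale at 2634 CPM per kilobase. The most abundant 5 genes held 41.3% of the ribosomal protein counts and the most abundant 20 held 76.3%. Many of these genes have near-identical retrogenes with which they can share reads, so single levels are uncertain.

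The most abundant members moved with the rest. Rpl8 had 1769, 1999 and 2114 CPM in doxycycline mice and 2507, 2580 and 2653 CPM in untreated mice. All 3 doxycycline mice were below all untreated mice, and the gene fell (log2 fold change -0.40 ± 0.08, SE; edgeR adjusted p = 0.004). Rps3, which helps to form the mRNA entry channel, averaged 1214 ± 52.3 CPM in doxycycline mice and 1547 ± 68.5 CPM in untreated mice (SD, n = 3 each; log2 -0.35 ± 0.07, edgeR adjusted p = 0.0034). Rpl4, which lines the exit tunnel, had 1122, 1122 and 1255 CPM in doxycycline mice against 1583, 1543 and 1524 CPM in untreated mice (log2 -0.41 ± 0.07, edgeR adjusted p = 0.0018). Rpl41, the smallest ribosomal protein, had 558.1, 562.1 and 646.9 CPM in doxycycline mice and 635.9, 702 and 728.5 CPM in untreated mice. These groups overlapped, and at log2 -0.23 ± 0.08 the gene was just outside the threshold (edgeR adjusted p = 0.0523); it passed with no filter, with DESeq2, in run 1 alone, and when untreated mouse 1 (adjusted p = 0.0413) or doxycycline mouse 3 (adjusted p = 0.0234) was left out.

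The stalk of the large subunit, which recruits the translation factors that hydrolyse GTP, was lower in 2 of its 4 genes (25.2% of all tested genes were). Rplp0, its base, had 1342, 1487 and 1534 CPM in doxycycline mice and 1707, 1749 and 1807 CPM in untreated mice, with no overlap (log2 -0.27 ± 0.07, edgeR adjusted p = 0.0143). Rplp1 had 649.1, 730.7 and 710.1 CPM in doxycycline mice and 816.2, 811.3 and 925.3 CPM in untreated mice, again with no overlap (log2 -0.29 ± 0.08, edgeR adjusted p = 0.016). Both calls depended on single mice: by edgeR leaving out doxycycline mouse 1 gave an adjusted p of 0.0527 for Rplp0 and 0.0626 for Rplp1, and leaving out untreated mouse 2 gave 0.0532 for Rplp0. Rplp2, the partner of Rplp1, had 106.5, 123 and 133.2 CPM in doxycycline mice and 121.4, 140.3 and 167.7 CPM in untreated mice. Its groups overlapped (log2 -0.24 ± 0.13, edgeR adjusted p = 0.151), though it passed without untreated mouse 1 (adjusted p = 0.0492). Rpl12, at the stalk base, had 24.2, 29.3 and 26.1 CPM in doxycycline mice and 26.5, 27.2 and 32.5 CPM in untreated mice, which overlapped (log2 -0.11 ± 0.11, edgeR adjusted p = 0.421).

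Rpl5 and Rpl11 join the 5S rRNA in a particle that, when ribosome assembly is disturbed, binds Mdm2 and so releases p53. Rpl5 had 25.3, 24.0 and 25.9 CPM in doxycycline mice and 33.6, 30.1 and 27.8 CPM in untreated mice. The groups lay apart (log2 -0.28 ± 0.09, edgeR adjusted p = 0.0336), and the adjusted p was 0.0527 to 0.122 when any mouse other than untreated mouse 3 was left out. Rpl11 had 6.62, 7.99 and 7.61 CPM in doxycycline mice and 8.58, 8.86 and 9.18 CPM in untreated mice, low counts that lay apart without passing (log2 -0.26 ± 0.13, edgeR adjusted p = 0.122). For reference, Mdm2 was higher in doxycycline mice (log2 0.60 ± 0.08, edgeR adjusted p = 0.00057) and Trp53, which encodes p53, was lower (log2 -0.43 ± 0.07, edgeR adjusted p = 0.0018).

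Along the peptide tunnel and its exit, where nascent chains meet chaperones and targeting factors, 5 of 8 genes were lower. Their median log2 fold change was -0.35, and 25.2% of all tested genes were lower. On the mRNA path of the small subunit 6 of 7 genes were lower, Rps2, Rps3 and Rps26 among them, with a median of -0.41, and Rps28 did not pass (log2 -0.18, edgeR adjusted p = 0.106). Rps2, beside the mRNA entry, had 89.2, 97.9 and 134.2 CPM in doxycycline mice and 143.2, 158.8 and 177.4 CPM in untreated mice. Doxycycline mouse 3 came close to the untreated range without entering it. The gene was lower (log2 -0.58 ± 0.16, edgeR adjusted p = 0.0213) but did not pass without untreated mouse 2 or 3 or doxycycline mouse 1 or 2 (adjusted p = 0.0569, 0.0558, 0.0548 and 0.095). Rps2 also overlaps the snoRNA host Snhg9.

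Several members have roles beyond the assembled ribosome. Rps6, a substrate of the S6 kinases, had 35.3, 28.1 and 32.7 CPM in doxycycline mice and 44.5, 39.1 and 35.4 CPM in untreated mice. The groups touched without overlapping, and at log2 -0.31 ± 0.11 the gene lay just outside the threshold (edgeR adjusted p = 0.0515); it passed with all mice under upper-quartile factors, library totals, TMM without these genes, no filter and DESeq2 (adjusted p = 0.0364 to 0.0497), and when untreated mouse 3 (adjusted p = 0.0277) or doxycycline mouse 1 (adjusted p = 0.0461) was left out. Rpsa, also known as the laminin receptor precursor, had 353.7, 343.2 and 423.5 CPM in doxycycline mice and 496.4, 490.2 and 498.8 CPM in untreated mice, well apart (log2 -0.41 ± 0.09, edgeR adjusted p = 0.005). Rps27a, made as a fusion with ubiquitin, had 27.8, 25.2 and 31.5 CPM in doxycycline mice and 41.7, 37.9 and 35.2 CPM in untreated mice, with no overlap (log2 -0.44 ± 0.11, edgeR adjusted p = 0.0087). Rpl10, which joins the large subunit late and is mutated in human T-cell leukemia, had 14.8, 14.1 and 15.1 CPM in doxycycline mice and 13.98, 15.1 and 13.8 CPM in untreated mice. Its groups overlapped (log2 0.04 ± 0.10, edgeR adjusted p = 0.764).

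The human counterparts of 19 members are mutated in Diamond-Blackfan anaemia, an inherited failure of red cell production. Of these 11 were lower and 1, Rpl15, was higher, against 25.2% and 24.8% of all tested genes. Their median log2 fold change was -0.29. Rps19, the gene most often affected, had 62.7, 73.4 and 78.9 CPM in doxycycline mice and 103.2, 99.5 and 96.4 CPM in untreated mice. Every doxycycline mouse was below every untreated mouse (log2 -0.48 ± 0.09, edgeR adjusted p = 0.0031).

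The largest falls came from both subunits and included paralogues. Rps27l, a close relative of Rps27 known as a p53 target, had 51.3, 44.0 and 55.2 CPM in doxycycline mice and 87.0, 74.0 and 68.9 CPM in untreated mice (log2 -0.61 ± 0.11, edgeR adjusted p = 0.0026). Rpl27a, a large-subunit protein, had 50.1, 43.5 and 50.1 CPM in doxycycline mice and 80.1, 69.3 and 67.5 CPM in untreated mice (log2 -0.59 ± 0.09, edgeR adjusted p = 0.0012). Neither gene's groups overlapped. Rpl7l1, a relative of Rpl7 found on precursors of the large subunit, had 108.8, 113 and 110.6 CPM in doxycycline mice and 177.2, 159 and 155 CPM in untreated mice (log2 -0.56 ± 0.07, edgeR adjusted p = 0.00044). Rpl14, of the large subunit as well, had 270, 273.5 and 311.8 CPM in doxycycline mice and 395.7, 398.6 and 404.5 CPM in untreated mice (log2 -0.49 ± 0.07, edgeR adjusted p = 0.001). These groups were also apart.

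**Figure D4:**
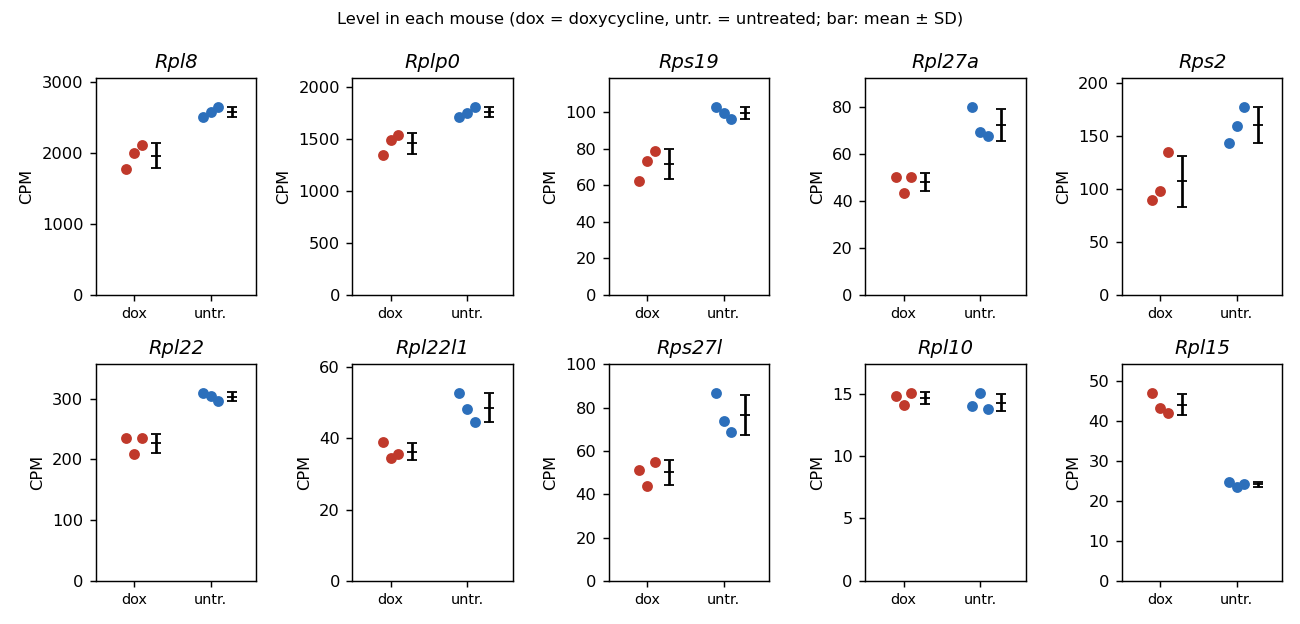
Level in CPM of 10 ribosomal protein genes in each mouse, doxycycline on the left and untreated on the right of each panel; points are mice, and bars are the mean ± SD of 3 mice. The groups are apart in all panels except Rpl10, with doxycycline mice below untreated mice in 8 genes and above them in Rpl15.

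Rpl15 was the exception. It had 47.0, 43.1 and 42.0 CPM in doxycycline mice and 24.7, 23.5 and 24.2 CPM in untreated mice, so the lowest doxycycline mouse was far above the highest untreated mouse. This was a rise of 82.6% (log2 0.87 ± 0.08, edgeR adjusted p = 0.000116). The gene, 66480 in the tables, lies at 14:18267823-18270986 in GRCm38 and has 1 of the long pyrimidine runs shown above. Of its neighbours, Nkiras1, an inhibitor of NF-kB signalling that begins 150 bases away, had 7.88, 8.66 and 6.72 CPM in doxycycline mice and 6.07, 4.76 and 5.95 CPM in untreated mice (log2 0.47 ± 0.16, edgeR adjusted p = 0.0393). Ube2e1, a ubiquitin-conjugating enzyme gene 11740 bases away, was lower in doxycycline mice (log2 -0.47 ± 0.07, edgeR adjusted p = 0.00086). The processed copy Rpl15-ps6 was lower as well, at 10.84 ± 1.02 CPM in doxycycline mice and 14.32 ± 0.34 CPM in untreated mice (SD, n = 3 each; log2 -0.40 ± 0.11, edgeR adjusted p = 0.0158).

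Some ribosomal proteins have paralogues that can take their place in the ribosome. Rpl22 is needed for the development of alpha-beta T cells in mice, where it represses its paralogue Rpl22l1. Rpl22 had 235.7, 208.9 and 235.7 CPM in doxycycline mice and 310.2, 304.8 and 296.4 CPM in untreated mice (log2 -0.42 ± 0.07, edgeR adjusted p = 0.0016). Rpl22l1 had 39.0, 34.4 and 35.5 CPM in doxycycline mice and 52.9, 48.3 and 44.7 CPM in untreated mice (log2 -0.42 ± 0.09, edgeR adjusted p = 0.0048). Neither gene's groups overlapped. Per kilobase, the ratio of Rpl22l1 to Rpl22 was 0.7078, 0.704 and 0.6448 in doxycycline mice and 0.729, 0.6774 and 0.645 in untreated mice, a log2 difference of 0.00 (exact permutation p = 1, two-sided).

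In all, 5 paralogue pairs could be compared by this ratio, and with 3 mice against 3 the smallest exact p is 0.1. The ratio of Rpl7l1 to Rpl7 was 0.0905, 0.0964 and 0.0913 in doxycycline mice and 0.114, 0.108 and 0.11 in untreated mice, lower in all doxycycline mice (log2 -0.25, exact permutation p = 0.1, adjusted 0.25). The ratio of Rps27l to Rps27 was 11.2, 9.70 and 13.95 in doxycycline mice and 19.97, 22.22 and 18.08 in untreated mice, also apart (log2 -0.80, exact permutation p = 0.1, adjusted 0.25). Rps27 itself had only 5.67, 5.62 and 4.90 CPM in doxycycline mice and 5.40, 4.13 and 4.72 CPM in untreated mice, which overlapped (log2 0.18 ± 0.16, edgeR adjusted p = 0.377). Most of the reads of that family were on its retrogene Rps27rt. With Rps27rt added to Rps27, a step chosen after seeing the data, the CPM ratio was 0.344, 0.277 and 0.379 in doxycycline mice and 0.508, 0.42 and 0.439 in untreated mice (log2 -0.46, exact permutation p = 0.1). The ratio of Rpl36al to Rpl36a was 13.2, 15.87 and 17.46 in doxycycline mice and 15.99, 17.05 and 14.45 in untreated mice, which overlapped (log2 -0.04, exact permutation p = 0.8).

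The parents behind these ratios differed in level. Rpl7, a conserved large-subunit protein, was lower (log2 -0.31 ± 0.06, edgeR adjusted p = 0.0044). Rpl3, near the peptide-bond centre, was lower too (log2 -0.38 ± 0.07, edgeR adjusted p = 0.0032), and its paralogue Rpl3l, a protein of heart and skeletal muscle, had only 11, 18 and 13 counts in doxycycline mice and 8, 21 and 3 in untreated mice. The ratio of Rpl3l to Rpl3 overlapped between groups (exact permutation p = 0.5). Rpl36al was lower, at 60.72 ± 4.4 CPM in doxycycline mice and 83.49 ± 6.79 CPM in untreated mice (SD, n = 3 each; log2 -0.46 ± 0.09, edgeR adjusted p = 0.0028). Rpl36a, at 3.73 ± 0.38 CPM in doxycycline mice and 5 ± 0.40 CPM in untreated mice, did not pass (log2 -0.42 ± 0.16, edgeR adjusted p = 0.0598). Rps4x, the X-linked form of a small-subunit protein, was lower (log2 -0.29 ± 0.07, edgeR adjusted p = 0.0084).

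The paralogues known from the testis were hardly seen: Rpl10l had 0 counts in all 6 mice, which allows up to 0.0667 to 0.10 CPM per mouse, and Rpl39l had 1 count in all. Rpl39, a tunnel protein, and Rpl13 were among the tested members with the lowest level per length. Rpl39 had 0.412, 0.289 and 0.46 CPM in doxycycline mice and 0.738, 0.422 and 0.532 CPM in untreated mice, which overlapped. Rpl13 had 3.79, 4.66 and 4.39 CPM in doxycycline mice and 4.96, 5.18 and 6.09 CPM in untreated mice, apart but not past the threshold (log2 -0.34, edgeR adjusted p = 0.122).

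The 38 retrogenes and pseudogenes took 0.1231 ± 0.00569% of the counts in doxycycline mice and 0.1571 ± 0.00351% in untreated mice (SD, n = 3 each). Of 26 tested 14 were lower and 0 were higher by edgeR, against 25.2% and 24.8% of all tested genes. The count higher was also 0 by DESeq2, limma-voom and an unadjusted p under 0.05, and the count lower was 14, 15 and 16 by these. The count of lower copies was 8 when untreated mouse 1 was left out and 9 when untreated mouse 2 was. In 9 of 17 gene families with a listed copy, more CPM was counted on copies than on the parent gene. Any copies without an Rpl or Rps symbol are not in these sums. Rpl37rt, an intact retrogene, carried 96.9% of its family's CPM, at 418.4 ± 33.0 CPM in doxycycline mice and 558.9 ± 22.0 CPM in untreated mice (log2 -0.42 ± 0.08, edgeR adjusted p = 0.0024), and its parent Rpl37 had a log2 fold change of -0.44. Summed over parent and copies, 16 of the 17 families had a log2 ratio of mean CPM (doxycycline over untreated) below 0. Rpl15 was again the exception, at a log2 ratio of 0.51. These sums were not tested, and 6607 of the 13134 tested genes also had a log2 fold change below 0.

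**Figure D5:**
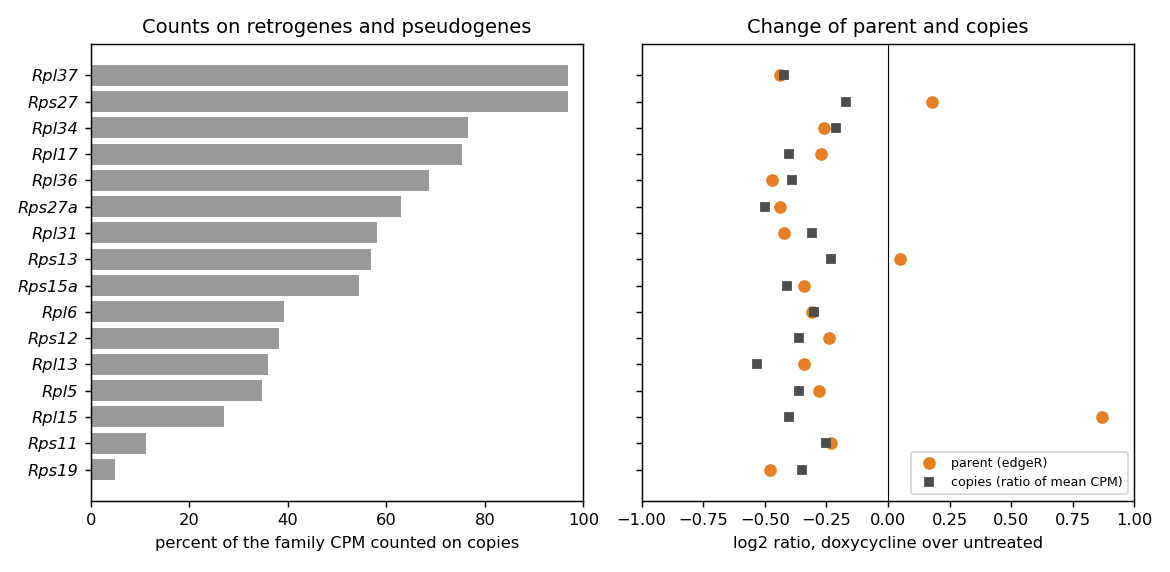
Left, percent of each family's mean CPM that was counted on retrogenes and pseudogenes; right, log2 ratio (doxycycline over untreated) of the parent gene (circles) and of its summed copies (squares), for 16 families with counts on a copy. Parent and copies lie on the same side of 0 except in Rps27, Rps13 and Rpl15.

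The promoters of 65 of the 85 members had a RefSeq window, and the first listed window of each gene was used. A C followed by at least 4 C or T stood exactly at the annotated start in 13 members (20%), against 2.39% of 9897 tested genes with a window. A run of C and T of at least 7 bases beginning with C lay within 20 bases of the start in 33 members (50.8%), against 19.2%. Of 32 tested members with such a run 21 were lower and 1 was higher, the median log2 fold change being -0.30. Of 31 without such a run 19 were lower, with a median of -0.32. Of the 20 members without a window 16 were lower, with a median of -0.34. Over all tested genes 25.2% were lower and 24.8% higher. The letters GGGAA, the core of the sequence that Ikaros binds, occurred on either strand of the 300 bases in 46 members (70.8%), against 64.3% of tested genes. Members with these letters had a median log2 fold change of -0.34 and those without had -0.28. CCGGAAG, the core of many ETS-factor sites, was in 25 members (38.5%), against 19.1%. CACGTG, the E-box read by Myc, was in 5 (7.69%), against 10.2%, and TATAAA was in 7 (10.8%), against 7.09%. A match of letters is a description and not a site.

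Other genes of the pathway were taken from lists. Of 18 translation factors and other genes with known TOP mRNAs, 13 were lower and 0 were higher by edgeR. The median log2 fold change was -0.31. Over all tested genes 25.2% were lower and 24.8% higher by edgeR. DESeq2, limma-voom and an unadjusted p under 0.05 each gave 14 lower and 0 higher. Among them were Npm1, a nucleolar chaperone (log2 -0.83 ± 0.13, edgeR adjusted p = 0.0013), the elongation factor genes Eef1g (log2 -0.77) and Eef1a1 (log2 -0.42), and Eif4b, an initiation factor (log2 -0.49). Eef2 just missed the threshold (log2 -0.21, edgeR adjusted p = 0.0506), and Tpt1 had a log2 fold change of 0.06. Of 3 ribosomal proteins with other names, Rack1, a signalling scaffold on the small subunit, was lower, at 830.7 CPM in doxycycline mice and 1066 CPM in untreated mice (log2 -0.36 ± 0.07, edgeR adjusted p = 0.0035). Fau, made as a fusion with a ubiquitin-like protein, had a log2 fold change of -0.04 and did not pass.

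Genes listed as escorts and chaperones of ribosomal proteins moved in the same direction. By edgeR 7 of 8 were lower and 0 higher (0 higher also by DESeq2, limma-voom and an unadjusted p under 0.05). Over all tested genes 25.2% were lower and 24.8% higher. From work in yeast and human cells, Tsr2 is known to carry Rps26, Heatr3 Rpl5 and Grwd1 Rpl3. The log2 fold changes were -0.74 ± 0.08 for Tsr2 (edgeR adjusted p = 0.00024), -0.72 for Heatr3 and -0.70 for Grwd1. Of 9 snoRNA host genes, many of them TOP genes without a protein, 5 were lower (25.2% of all tested genes were), led by Snhg4 (log2 -0.93) and Gas5 (log2 -0.44). This count was 3 when untreated mouse 2 or 3 or doxycycline mouse 1 was left out. Mitochondrial ribosomal proteins, which build the separate ribosome of mitochondria, are not members. Of 77 tested, 52 were lower and 2 were higher (Mrpl9 and Mrps26), against 25.2% and 24.8% of all tested genes. Their median log2 fold change was -0.33. The count lower was 41 to 49 when single mice were left out and 44 to 52 under the other settings. Leaving out untreated mouse 1 or 2 left 0 of the higher calls, and leaving out doxycycline mouse 2 or 3 left 1.

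Among 14 regulators of TOP mRNA translation, 7 were lower and 2 were higher, against 25.2% and 24.8% of all tested genes. Larp1, which binds and holds TOP mRNAs, averaged 423.2 CPM in doxycycline mice and 724.2 CPM in untreated mice (log2 -0.78 ± 0.08, edgeR adjusted p = 0.00019). Eif4ebp1, an inhibitor of cap-dependent initiation, averaged 9.905 CPM in doxycycline mice and 34.25 CPM in untreated mice (log2 -1.79 ± 0.12, edgeR adjusted p = 4.7e-05). The S6 kinase genes Rps6ka1 (log2 0.50) and Rps6kb2 (log2 0.37) were the higher ones, and 1 of these calls was lost without untreated mouse 1 or 2. Myc, a transcription factor known to drive ribosome production, averaged 145.4 ± 29.6 CPM in doxycycline mice and 364.9 ± 26.0 CPM in untreated mice (SD, n = 3 each; log2 -1.33 ± 0.15, edgeR adjusted p = 0.00044). Its part in the values above was not tested.

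The spread between mice was close to that of other genes. Among 48 members with at least 50 CPM the median coefficient of variation was 6.67% in doxycycline mice and 4.56% in untreated mice, against 7.04% in doxycycline mice and 5.01% in untreated mice over 4777 genes of that level. Doxycycline mouse 3 had the highest levels of its group in sum: 69 of its 83 tested members were above their group mean, against 24 in doxycycline mouse 1 and 33 in doxycycline mouse 2. In the untreated mice these counts were 48, 30 and 42. Mitochondrial transcripts, a sign of cell and RNA state, took 0.1218, 0.1577 and 0.1323% of the counts in doxycycline mice and 0.06972, 0.06329 and 0.09333% in untreated mice. Their part in the result was not tested. Analysed apart, the 2 sequencing runs gave the same sign for 80 of 81 members, with a median absolute difference of 0.034 in log2 fold change.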

How the data were processed

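RNA-seq counts of 12 libraries (6 mice, 2 runs each) were used. The deposited tables hold unnormalized counts for each Entrez gene, beside its length. The submitters' processing notes name CASAVA 1.8.1, featureCounts and mm10. How reads were aligned, on which annotation and with what strand setting, and how multiply matching reads were counted, is not given in the sources used here;  overlapping genes and near-identical copies can share or lose reads; of the 85 members 18 overlap another annotated gene. The whole-series table equalled the library tables in 12 of 12 libraries. Symbols, biotypes and start windows came from RefSeq (GRCm38), which matched 25275 of 27179 identifiers.

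Runs were summed per mouse. Both groups were fitted with edgeR 4.0.16 (R 4.3.3) after filterByExpr, using TMM factors, robust dispersion and the quasi-likelihood F test, Benjamini-Hochberg adjusted over 13134 genes at 0.05, with no block. The SE of a log2 fold change is its size over the root of the F statistic. Levels in CPM are relative to TMM-scaled totals, and 3 counts were taken as the limit that a count of 0 allows. Paralogue ratios were compared with the exact permutation test. Nothing in the labels says that mice of equal replicate number share a litter or day. DESeq2 1.42.0, limma-voom (limma 3.58.1) and other scalings and filters were alternatives. The tests were also run on simulated counts in which far fewer genes changed than were called here. Such counts cannot show how well the tests do under so broad a change.

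Some genes are counted in the lists but not reported by name here. The members and lists were chosen with earlier results of these data known. Named members were the paralogue pairs, the 5S particle and stalk genes, Rps6, Rpsa, Rpl10, Rps19, Rps27a, the 5 largest falls and rises that passed (only 1 member rose), and the 3 highest and 3 lowest per length. Rpl4, Rps3, Rpl37rt, the non-passing or passing genes named beside group counts and the neighbours of Rpl15 were chosen after their values were seen.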

Additional observations from a re-analysis of the deposited data

How the results depend on the processing

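The count of lower ribosomal protein genes, 56, was 41 to 57 when single mice were left out and 48 to 58 under the other settings (RLE, upper-quartile and total scaling, TMM without these genes, other filters, DESeq2, limma-voom, a fit that is not robust, single runs, the replicate block). Rpl15 was the sole member called higher in each of these. With the replicate number as a block 56 were lower, 51 of them the same genes. Deviations of same-numbered mice had correlations of 0.156, -0.012 and -0.103, within the range of differently numbered mice (-0.191 to 0.168). With 3 mice per group these cannot decide whether the numbers pair the mice. Over the leave-one-out fits the small-subunit count was 15 to 24, lowest without untreated mouse 2; the difference in share was -0.455 to -0.379 percentage points, main value -0.414. The log2 ratio of Rpl22l1 to Rpl22, 0.00, was -0.051 in run 1 alone and -0.037 to 0.051 without single mice, and that of Rpl36al to Rpl36a, -0.04, was 0.051 in run 1 alone and -0.126 to 0.076. The log2 fold change of Rpl3l was -0.415 to 0.877 without single mice and -0.546 without both untreated mouse 3 and doxycycline mouse 2. The cause of these changes was not tested. Rps2 had an adjusted p of 0.184 without both mice, and Rpl5 0.129 in run 2 alone and 0.0521 with the block. Rps6, Rplp2 and Rpl41, which missed the threshold, passed with the block (adjusted p = 0.0374, 0.0264 and 0.0342). Whether depth limits the calls among members under 10 CPM was not tested.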
